A study of Oryza sativa with 14 samples.

Results

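The genes described here are those whose signal was higher in roots of both the mhz4 and the mhz5 rice mutant than in wild-type roots, in ethylene as well as in air. A probe set was taken when log2(signal + 8) was at least 0.8 higher than on the wild-type (WT) root array of the same gas on all 4 arrays of mhz4 and mhz5 roots, and when its signal was at least 50 on each of those 4 arrays. The rule found 103 probe sets among 57258, or among 18204 that reached a signal of 50 on all 4 mutant root arrays (0.566% of them). The genes were thus chosen by the measured root differences themselves, which are described below without a test.

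The data come from 14 one-colour Affymetrix rice arrays of dark-grown seedlings, with 1 array for each combination of genotype, tissue and gas. Roots of mhz4, mhz5, mhz1 and WT and shoots of mhz4, mhz5 and WT were each hybridised once after ethylene and once after air. Seeds of every group were germinated in darkness at 37 °C for 2 days, and seedlings aged 3 days were kept in darkness at 28 °C under 10 ppm ethylene for 8 h, their water having been lowered to between 1.5 and 1.7 cm below the seeds. The controls were grown in air; the labels used here do not state for how long, at what temperature or with how much water. The labels name no alleles and do not say whether a mutant was represented by more than 1 line or how many seedlings went into an extract. The mark "mb" stands, unexplained, in the title of each WT root array and of no other array, so genotype and whatever the mark stands for cannot be told apart in any comparison of mutant and WT roots.

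Ethylene slows root growth in dark-grown rice seedlings, and the mhz mutants were isolated for an altered ethylene response. MHZ5 encodes carotenoid isomerase and MHZ4 a chloroplast protein, and both act in the route through carotenoids to abscisic acid (ABA), a hormone that works with ethylene in the root. MHZ1 encodes a histidine kinase that acts close to the ethylene receptors. The genotypes therefore pair 2 lesions in ABA supply with 1 in ethylene signalling.

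The array data bore out the tissue labels. Among root arrays the signal of MHZ4 was lowest in mhz4. That signal was dim and the labels name no allele, so it does not settle the mhz4 label. No probe set was found by name for MHZ5 or MHZ1, so the other genotype labels went unchecked. The probe set for MHZ4 read 45.3 in ethylene and 46.9 in air in mhz4 roots, between 64.8 and 92.6 in mhz5 and mhz1 roots, and 101 in ethylene and 116 in air in WT roots. Summed signal of 15 root marker genes was 11522 in ethylene and 10610 in air in mhz4 roots, 11327 and 10431 in mhz5 roots, 10699 and 7265 in mhz1 roots, and 10941 and 7351 in WT roots, against 1453 to 2173 on the 6 shoot arrays. In air this sum was thus higher in mhz4 and mhz5 than in mhz1 and WT, while in ethylene the 4 genotypes were close. Summed signal of 13 genes of green tissue was 268 to 706 in mhz4 and mhz5 roots, with the highest value in mhz4 roots in ethylene, and 274 to 276 in WT roots, against 23756 to 34043 in shoots. Markers of dividing cells, 19 genes such as histones, summed to between 19541 and 23540 in mhz4 and mhz5 roots and to 19244 and 18804 in WT roots. Seed and endosperm genes, 13 in all, summed to between 1057 and 1275 in all roots. None of these marker genes met the rule, and the part of the root marker sum or of tissue makeup in the differences was not tested. In extracts of whole organs, more cells of a type and more RNA per cell cannot be told apart.

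Of the 103 probe sets, 65 were assigned to 1 gene each by the platform annotation, giving 64 genes because LOC4344199 was covered by 2 probe sets, and 38 had no gene assigned. Only 12 of the genes had a descriptive name in the gene table; the others are given by locus and have no role stated here. The genes lay on all 12 chromosomes, at most 9 on any chromosome, and no 2 were neighbours in the gene table. Mean signal on the 4 mutant root arrays spanned 63.6 to 4063, with a median of 338. WT roots read under 50 for 16 of the probe sets in ethylene and for 38 in air. Names of 10 probe sets end in _s_at, 7 in _x_at and 4 in _a_at, marking probes that may detect more than 1 transcript, and several probe sets share a target, so the 103 are not independent of each other. For 7 of the genes another probe set was in the fit without meeting the rule, and it was above WT in all 4 comparisons for 5 of them.

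The differences were of similar size in both mutants and somewhat larger in air. Their median was 1.24 in ethylene and 1.62 in air for mhz4 minus WT, and 1.26 in ethylene and 1.71 in air for mhz5 minus WT, all on the log2(signal + 8) scale, while the medians over all 23237 probe sets in the fit lay between -0.07 and -0.05. The difference was larger in air than in ethylene in both mutants for 63 probe sets, and the reverse held for 17. The smallest of the 4 differences had a median of 1.08. Probe sets just inside the threshold were 2 of LOC4344199 (both 0.802) and 1 of HSP18.8 (0.805), and just outside it stood LOC4334783 and LOC4334521 (both 0.791) and LOC4341168 (0.790). For 98 of the 103, both mutants in air were at or above the WT root in ethylene. The 2 mutants lay within 0.8 of each other in both gases for 88 probe sets, and mhz5 exceeded mhz4 by at least 0.8 in both gases for 2, LOC4333209 and Os.12629.1.S1_at, named here after their values were seen.

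**Figure D1:**
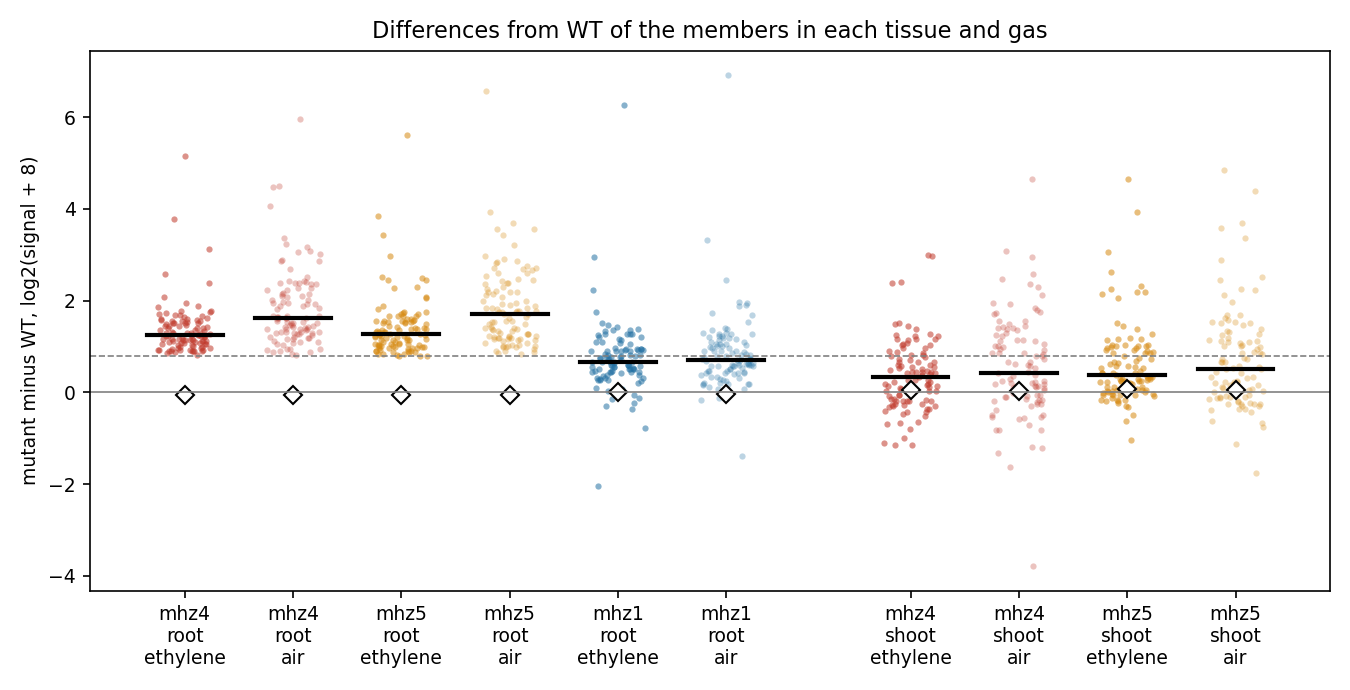
Mutant minus WT for the 103 probe sets (points) in log2(signal + 8), for each mutant, tissue and gas, with black bars at the median of the 103 and white diamonds at the median of all 23237 probe sets in the fit; the dashed line marks 0.8. The 4 root columns of mhz4 and mhz5 were used by the rule and lie above the line by construction, the mhz1 root columns centre on 0.67 in ethylene and 0.71 in air, and the shoot medians lie between 0.33 and 0.51.

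The largest difference belonged to OsAffx.22999.1.S1_at, which has no gene assigned. Its signal was 2100 in ethylene and 2026 in air in mhz4 roots, 2856 and 3115 in mhz5 roots, 4544 and 3934 in mhz1 roots, and 51.2 and 24.9 in WT roots, ethylene first each time. Shoots read 2128 and 2765 in mhz4, 3250 and 2838 in mhz5, and 2676 and 4524 in WT. Only the 2 WT root arrays were low for this probe set, and WT shoots were as bright as the mutants. For 20 of the 103 probe sets both WT root arrays were the lowest of all 14 arrays, a pattern that the rule favours and that 2.49% of all probe sets in the fit showed. The others in that set included BGLU3, EXPB3, CIPK17, HSP18.8, LOC4343352 and LOC4333176.

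Enzymes of phenolic, indole and oxylipin metabolism were among the named genes. THT2, named for a tyramine hydroxycinnamoyl transferase that joins phenolic acids to tyramine, read 404 in ethylene and 357 in air in mhz4 roots and 420 and 545 in mhz5 roots, against 159 and 73.8 in WT roots. TDC2 encodes a tryptophan decarboxylase, which makes tryptamine, and it read 470 and 409 in mhz4 and 452 and 371 in mhz5, against 186 and 102 in WT. Every mhz4 and mhz5 root array was above both WT root arrays for these 2 genes. LOX3 encodes a lipoxygenase, an enzyme that adds oxygen to fatty acids. Its signal was 579 in ethylene and 734 in air in mhz4 roots, 517 and 500 in mhz5 roots, and 174 and 25.4 in WT roots. Its difference from WT was 1.69 in ethylene and 4.48 in air for mhz4, and 1.53 in ethylene and 3.93 in air for mhz5, so the gap between gases came with a low WT value in air. Among 30 fitted genes of the jasmonate and lipoxygenase list LOX3 was the only one to meet the rule, and the list's median difference was -0.04 in mhz4 and 0.00 in mhz5. CM-LOX1 of the same list lay between 0.53 and 3.95 above WT.

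BGLU3 encodes a beta-glucosidase, one of a large family of enzymes that release sugars from glycosides. It read 92.6 in ethylene and 80.7 in air in mhz4 roots and 95.6 and 57.3 in mhz5 roots, against 11.1 and 8.91 in WT roots. Mutant and WT arrays were far apart, although the WT values were near the bottom of the scale. A second probe set of BGLU3 in the fit lay between 0.71 and 1.22 above WT and missed the rule. Among 21 fitted beta-glucosidases BGLU3 was the only one found by the rule, BGLU36 came close with differences of 0.75 to 0.90, and the family medians were -0.17 in mhz4 and -0.15 in mhz5.

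The haemoglobin gene NSHB2 followed BGLU3 among the named genes by the smallest of its 4 differences, 1.82. Non-symbiotic haemoglobins bind oxygen and remove nitric oxide, and they are known to be induced by low oxygen. NSHB2 read 1236 in ethylene and 72.4 in air in mhz4 roots, 1296 and 152 in mhz5 roots, 44.9 and 19.2 in mhz1 roots, and 82.9 and 14.8 in WT roots. The mutant values in ethylene stood far above all other root values, while the air values of mhz4 lay below the WT value in ethylene. Of the 7 fitted low-oxygen and haemoglobin genes NSHB2 alone met the rule, and the related NSHB1 was 0.73 to 2.71 above WT. The fermentation genes PDC1 and PDC2 of the list were 0.26 to 0.61 and 0.02 to 0.23 above WT.

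Genes of nutrient uptake formed the next group. NRT2.2 and NRT2.3 encode high-affinity nitrate carriers of the root. NRT2.2 read 273 in ethylene and 230 in air in mhz4 roots and 215 and 205 in mhz5 roots, against 65.3 and 81.1 in WT roots. NRT2.3 read 233 and 155 in mhz4 and 352 and 138 in mhz5, against 103 and 70.2 in WT. Mutant arrays exceeded both WT arrays in each case. Both genes are read by probe sets of the _x_at kind, and NRT2.2 has the near-identical copy NRT2.1, so their signals may be shared. NAR2.2, of the family of small partner proteins that nitrate carriers of this type need, was 0.60 to 1.35 above WT and missed the rule in 1 of the 4 comparisons. The 19 fitted nitrogen and phosphate transporters had a median difference of 0.16 in each mutant, and AMT3-2, an ammonium transporter, was 1.16 to 1.43 below WT.

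IDI2 belongs to the methionine cycle that recycles the by-product of ethylene and iron chelator synthesis, and its name refers to induction by iron deficiency. Its probe set found by the rule read 133 in ethylene and 56.9 in air in mhz4 roots and 202 and 67.3 in mhz5 roots, against 42.5 and 18.9 in WT roots. All mutant values were above both WT values, and all were low on the array's scale. The second, brighter probe set of IDI2 lay only 0.29 to 1.35 above WT, so the gene's 2 probe sets disagree on the rule. Of 25 fitted iron acquisition genes IDI2 alone was found, and the list's median was 0.38 in mhz4 and 0.75 in mhz5. IRT1, the ferrous iron transporter, ranged between 0.06 and 2.79 above WT, and the nicotianamine synthase genes NAS1 and NAS2 between 0.09 and 1.14.

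Growth, signalling and stress genes completed the named set. EXPB3, a beta-expansin that loosens cell walls, read 2200 in ethylene and 2921 in air in mhz4 roots and 2171 and 2505 in mhz5 roots, against 932 and 1186 in WT roots. Expansins did not move together, since EXPB18 was 2.68 to 3.05 and EXPA31 1.53 to 2.07 below WT in the same roots and EXPA2 was 0.61 to 1.07 above. ADF11, an actin-depolymerising factor, read 1007 and 950 in mhz4 and 1140 and 1195 in mhz5, against 456 and 406 in WT, and the 9 fitted genes of that family had medians of -0.05 in mhz4 and -0.18 in mhz5. CIPK17, a kinase of the calcium sensor network, read 435 and 415 in mhz4 and 349 and 521 in mhz5, against 173 and 210 in WT. Its relative CIPK6 was 1.71 to 2.11 below WT. HSP18.8, a small heat shock protein, read 1239 and 1362 in mhz4 and 985 and 1097 in mhz5, against 560 and 256 in WT, while HSP18.0 was 0.57 to 0.78 below WT.

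**Figure D2:**
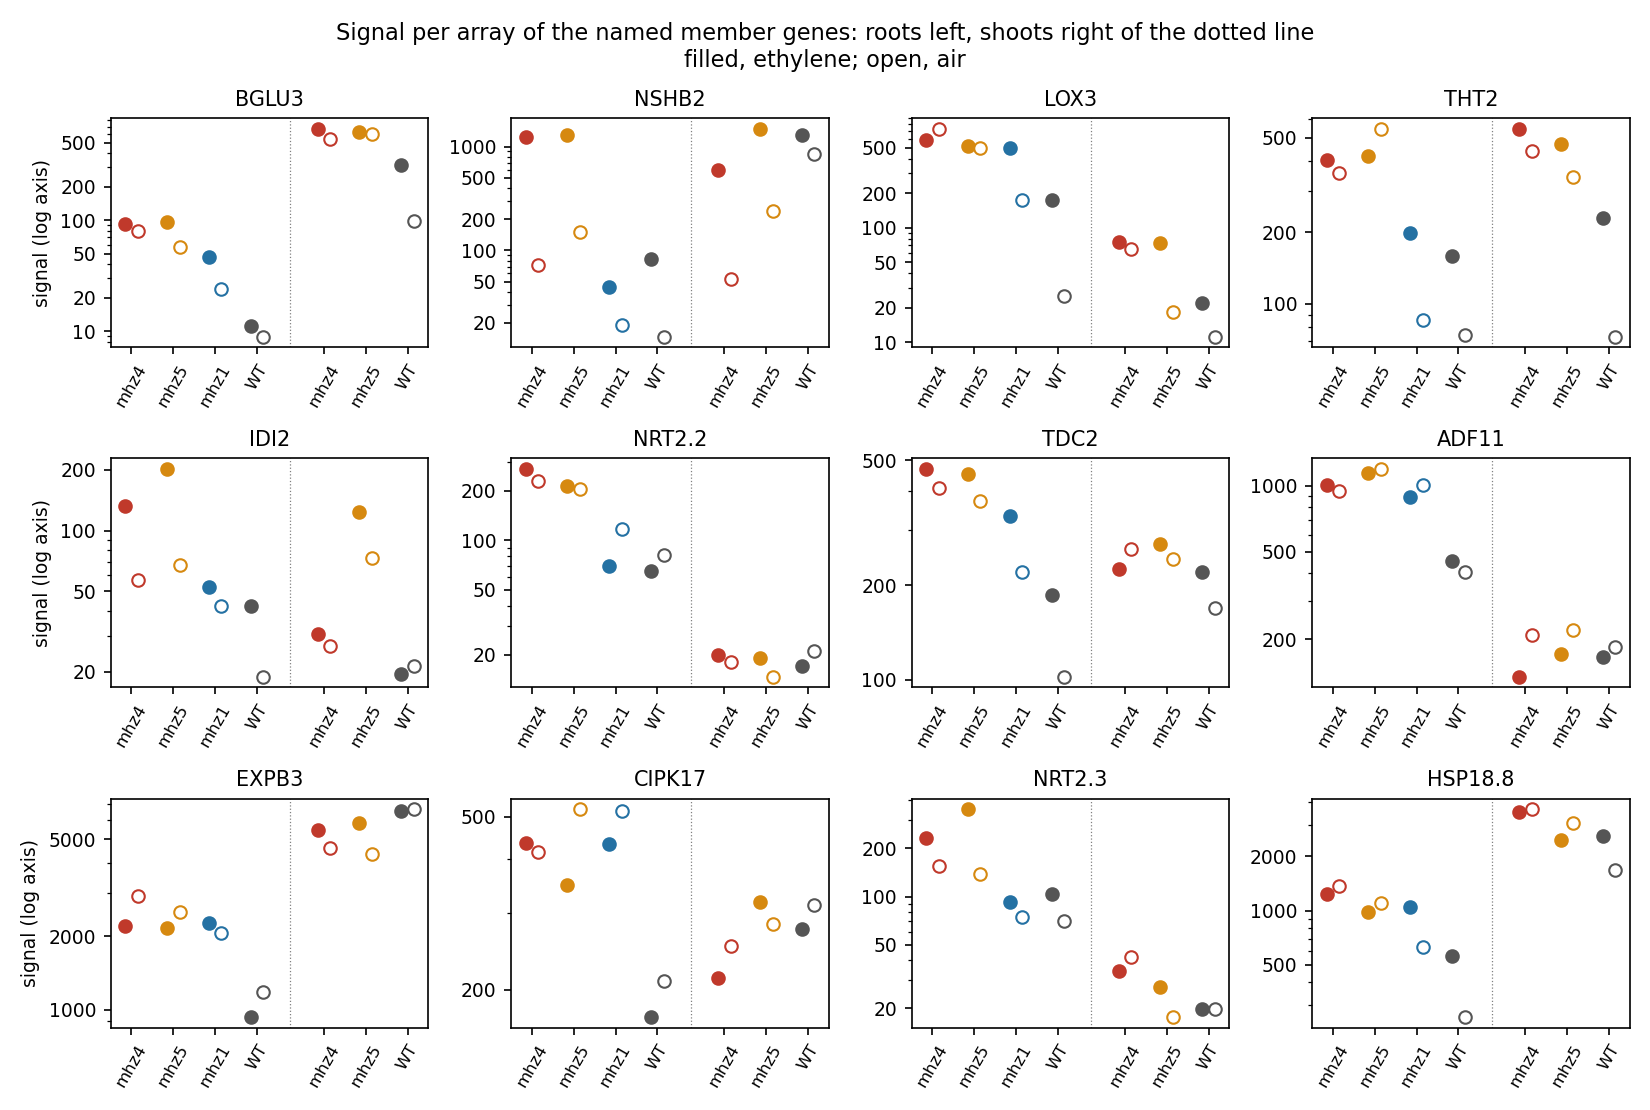
Deposited signal on each array, on a log axis, for the 12 named genes (probe sets found by the rule), with roots left and shoots right of the dotted line, filled circles for ethylene and open circles for air, 1 array each. Root signals of mhz4 and mhz5 lie above WT in the same gas in every panel; in shoots all 4 mutant arrays lie above both WT arrays for BGLU3, THT2, IDI2 and TDC2 and below both for EXPB3, and mutant and WT arrays overlap in the other panels.

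Among 22 pathway lists, 16 held no gene found by the rule. They included carotenoid and ABA metabolism, ethylene synthesis, ethylene perception and signalling, aquaporins, auxin, cytokinin and cell wall genes. Their fitted genes ranged from 2 for ethylene synthesis to 51 for auxin. The rule took 0.566% of the probe sets bright enough for it, so an empty list of such a size says little. The 1 or 2 genes found in each other list are likewise too few to compare with that share. The 6 fitted genes for LEA proteins and dehydrins, which protect cells during drying and respond to ABA, had a median of -2.45 in mhz4 and -2.34 in mhz5 roots, and the 6 fitted clade A PP2C phosphatases, which restrain ABA signalling, had -1.26 and -1.19.

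Several of the brightest genes found by the rule had no descriptive name. LOC4341305 had the highest mean signal, with 3364 in ethylene and 5956 in air in mhz4 roots and 2950 and 3982 in mhz5 roots, against 1417 and 1164 in WT roots. LOC4348334 read 3158 and 3436 in mhz4 and 2875 and 3244 in mhz5, against 1447 and 1099 in WT. LOC4326500 had one of the largest differences among bright probe sets, with 2482 and 1654 in mhz4 and 2047 and 2082 in mhz5, against 411 and 152 in WT. Both WT arrays were the lowest values of each of these 3 genes among the 8 root arrays.

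Roots of mhz1 were not used to choose the genes, but they were compared with the same 2 WT root arrays, so these differences carry no test. The median of mhz1 minus WT was 0.67 in ethylene and 0.71 in air, against 0.00 and -0.04 over all probe sets in the fit. In both gases mhz1 was at least 0.8 above WT for 32 of the 103, where 0.499% of all probe sets in the fit were, and at least 0.8 below it for 1, Os.46431.1.S1_at, where 0.534% were. For 77 probe sets mhz1 lay between WT and both other mutants in each gas, and for 4 it reached the lower of mhz4 and mhz5 in each gas. Both WT arrays were the lowest of the 8 root arrays for 51 of the 103, a count that the rule favours and that compares with 6.61% of all probe sets.

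The genes differed widely in how mhz1 roots read. OsAffx.22999.1.S1_at (6.59), LOC4340325 (3.14), Os.8360.1.S1_at (2.09), LOX3 (1.96) and LOC4326500 (1.81) had the highest mean of mhz1 minus WT. LOC4340325 read 52.0 in ethylene and 73.4 in air in mhz4 roots, 51.4 and 77.6 in mhz5 roots and 137 and 148 in mhz1 roots, against 10.8 and 7.58 in WT roots. A second probe set of LOC4340325, too dim for the fit, was only 0.04 to 0.13 above WT in mhz4 and mhz5 roots. Its highest root signal was 40.2. ADF11 and CIPK17 in mhz1 roots, at 890 and 1013 and at 432 and 516, were within the range of the other mutants or close to it. At the other end stood Os.46431.1.S1_at, with 234 and 251 in mhz4 and 130 and 146 in mhz5, but 5.92 and 14.4 in mhz1, against 49.7 and 50.5 in WT. Here mhz1 was the lowest of the 4 genotypes and mhz4 the highest. NSHB2 (-0.26), LOC4333209 (-0.05), NRT2.3 (-0.03) and OsAffx.23913.3.S1_at (0.08) had the next lowest means, and in each of them mhz1 was below WT in ethylene and above it in air. Their differences were -0.78 and 0.25 for NSHB2, -0.37 and 0.26 for LOC4333209, -0.13 and 0.07 for NRT2.3 and -0.23 and 0.38 for OsAffx.23913.3.S1_at, ethylene first.

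Shoots were not used by the rule and have their own WT arrays, which carry no "mb" mark. In a limma fit over all arrays, with the ethylene and air arrays of a genotype standing in as replicates, 43 of the 103 probe sets were higher in mhz4 and mhz5 shoots than in WT shoots at an adjusted p under 0.05, where 18.2% of all probe sets in the fit were higher. Only EXPB3 and OsAffx.31531.1.S1_s_at were lower, where 11.1% of all were lower, and 58 did not pass the test. The median difference was 0.42 for the 103 and 0.06 for all in the fit. Of all calls in this comparison 62.1% were higher, a share that was 49.8% after scaling all arrays to one trimmed mean and 45.7% after quantile normalization, while the median of the 103 was 0.38 and 0.39. The spread in this fit was estimated from root and shoot arrays together, and the rule used some of the root arrays. With only shoot arrays in the fit, 37 of the 103 were higher and 0 lower, among 4057 calls over all probe sets. The counts leaned on the WT shoot array in air: without it 11 of the 103 were higher, where 3.93% of all were, and 0 lower, and calls over all probe sets dropped to 1375 from 6796.

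Taken alone, mhz4 shoots had 37 of the 103 higher, against a background of 15.1%, and mhz5 shoots 35, against 13.1%. Of these, 25 were higher in both, for which the share over all probe sets was not computed. Lower calls numbered 5 in mhz4 shoots (background 10.9%) and 1 in mhz5 shoots (background 6.27%). The 5 were NSHB2 (-2.45), LOC4332308 (-0.76), LOC4324944 (-0.62), Os.12629.1.S1_at (-0.52) and OsAffx.31531.1.S1_s_at (-0.47), and the 1 was OsAffx.15178.1.S1_s_at (-0.67). These counts also rest on single arrays. In each mutant the higher calls fell without its air array, without its ethylene array or without the WT air array. Calls over all probe sets fell in the same fits, so the fall was not particular to the 103. All 4 shoot differences reached 0.8 for 16 of the 103, where 1.63% of all probe sets did, and none of the 103 was at or below -0.8 in all 4, where 0.534% were. On the shoot arrays 19 of the 103 stayed under a signal of 50 throughout, among them LOC4341368 and NRT2.2.

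BGLU3 read 672 in ethylene and 535 in air in mhz4 shoots and 623 and 600 in mhz5 shoots, against 313 and 98.5 in WT shoots, a difference of 1.73 ± 0.28 (SE; limma adjusted p = 0.00393). THT2 read 548 and 439 in mhz4 and 471 and 341 in mhz5, against 230 and 72.9 in WT, a difference of 1.70 ± 0.34 (SE; limma adjusted p = 0.00886). In both genes all 4 mutant shoot arrays were above both WT arrays. The call for THT2 was lost without the WT air array (adjusted p = 0.156), that for BGLU3 was not lost under any alternative tried. LOC4340325 read 78.1 and 102 in mhz4 and 73.5 and 138 in mhz5, against 8.36 and 6.24 in WT, a difference of 2.75 ± 0.22 (SE; limma adjusted p = 0.000284). Os.46431.1.S1_at, the probe set that was lowest in mhz1 roots, read 136 and 164 in mhz4 and 106 and 103 in mhz5, against 10.3 and 12.4 in WT, a difference of 2.78 ± 0.14 (SE; limma adjusted p = 6.95e-05). These last 2 probe sets read over 50 in both tissues of both mutants and were near the bottom of the scale in WT shoots.

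Among the other large shoot differences, LOC4346629 had the largest at 2.98 ± 0.58 (SE; limma adjusted p = 0.00822), with 1382 and 778 in mhz4 and 583 and 395 in mhz5, against 255 and 23.1 in WT. Its call depended on the WT air array, without which the adjusted p was 0.142. Os.27028.1.A1_at (1.92), OsAffx.20014.1.S1_at (1.73) and Os.17190.1.A1_s_at (1.51) were also higher, the second of them not without the WT air array (adjusted p = 0.148). LOC4341305 was higher by 1.39 and LOC4348334 by 0.99, with limma adjusted p of 0.00333 and 0.00218, and without WT air the first of these had an adjusted p of 0.0732.

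EXPB3 ran the other way in the 2 tissues. In shoots it read 5463 in ethylene and 4606 in air in mhz4 and 5823 and 4331 in mhz5, against 6531 and 6645 in WT, so every mutant array was below both WT arrays. The difference was -0.39 ± 0.12 (SE; limma adjusted p = 0.0381), and the call was lost in 7 of 14 alternatives. OsAffx.31531.1.S1_s_at was lower by a similar amount, with -0.46 ± 0.13 (SE; limma adjusted p = 0.0297), and its call was lost in 5 of 14 alternatives. ADF11, CIPK17, NRT2.2, TDC2 and LOC4343352 did not pass the shoot test, with differences of 0.04, -0.15, -0.06, 0.36 and 0.03. LOX3 and HSP18.8 did not pass either, at 1.33 ± 0.53 and 0.59 ± 0.28 (SE; limma adjusted p of 0.0891 and 0.137).

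Over all probe sets in the fit 18.2% were higher and 11.1% lower in mutant shoots. Of the pathway lists that held a gene found by the rule, iron acquisition had 15 of 25 fitted genes higher and 0 lower, and nitrogen and phosphate transporters 9 of 19 higher and 0 lower. The first group included NAS2 at 2.08 and IRT1 at 2.12, and the second AMT1 at 0.65. Expansins and xyloglucan endotransglucosylases had 1 of 23 higher and 10 lower, heat shock genes 4 of 34 higher and 6 lower, and jasmonate and lipoxygenase genes 2 of 30 in each direction. None of the 7 low-oxygen genes passed. Beta-glucosidases had 7 of 21 higher and 4 lower, CIPK kinases 4 of 21 higher and 3 lower, and actin-depolymerising factors 0 of 9 higher and 1 lower. Without the WT shoot air array, where the shares over all were 3.93% and 1.99%, iron acquisition had 5 higher, nitrogen and phosphate transporters 2 higher, beta-glucosidases 3 higher, expansins and xyloglucan endotransglucosylases 4 lower and heat shock genes 1 higher and 2 lower.

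The 2 mutants parted in shoots for a small set of the genes. A limma test of mhz5 minus mhz4 shoots, added after the data had been seen, called 6 of the 103 higher in mhz5, where 0.891% of all probe sets were, and 0 lower, where 0.538% were. At an unadjusted p under 0.05 in limma, 15 of the 103 were higher and 10 lower, where 2759 and 1426 of all 23237 probe sets in the fit were. LOC4351985 read 1081 in ethylene and 563 in air in mhz5 shoots, 11.6 and 9.94 in mhz4 shoots, and 35.6 and 11.8 in WT shoots. LOC4333209 read 2089 and 1384 in mhz5, 72.1 and 51.8 in mhz4, and 131 and 58.6 in WT. LOC4324944 read 2550 and 1735 in mhz5, 145 and 115 in mhz4, and 299 and 137 in WT. In each of these 3 genes mhz5 shoots were far above both other genotypes, and mhz4 shoots were below WT in the same gas.

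The differences of mhz5 from mhz4 in shoots were 5.39 ± 0.27 for LOC4351985, 4.63 ± 0.20 for LOC4333209 and 3.95 ± 0.20 for LOC4324944 (SE; limma adjusted p of 3.2e-05, 1.72e-05 and 3.12e-05). A second probe set of LOC4324944, of the _a_at kind, was 0.03 to 1.02 above WT in mutant roots and missed the rule. Os.26063.1.S1_at, which has no gene assigned, read 1988 and 1346 in mhz5, 297 and 70.9 in mhz4, and 471 and 174 in WT, a difference between mutants of 3.40 ± 0.32 (SE; limma adjusted p = 0.00151). Os.12629.1.S1_at, also without a gene, differed by 1.58 ± 0.09 (SE; limma adjusted p = 7.7e-05). It read 6886 and 5746 in mhz5, 2415 and 1821 in mhz4, and 3814 and 2367 in WT. IDI2 read 123 and 73.4 in mhz5, 30.7 and 26.9 in mhz4, and 19.5 and 21.5 in WT on its member probe set. The difference between mutants there was 1.49 ± 0.24 (SE; limma adjusted p = 0.0427) and did not pass in 7 of 14 alternatives. The second probe set of IDI2 was 0.24 above WT in mhz4 and mhz5 shoots and did not pass (limma adjusted p = 0.361).

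In roots the same 6 probe sets were higher than WT in both mutants by the rule, with the mhz5 value above the mhz4 value in each gas. LOC4351985 read 1366 in ethylene and 511 in air in mhz5 roots and 639 and 313 in mhz4 roots, against 231 and 58.6 in WT roots. LOC4333209 read 1746 and 532 in mhz5 and 643 and 301 in mhz4, against 305 and 91.5 in WT. The mhz1 root values of these 2 genes, 185 and 98.5 and then 235 and 111, lay below the WT value in ethylene and above it in air.

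**Figure D3:**
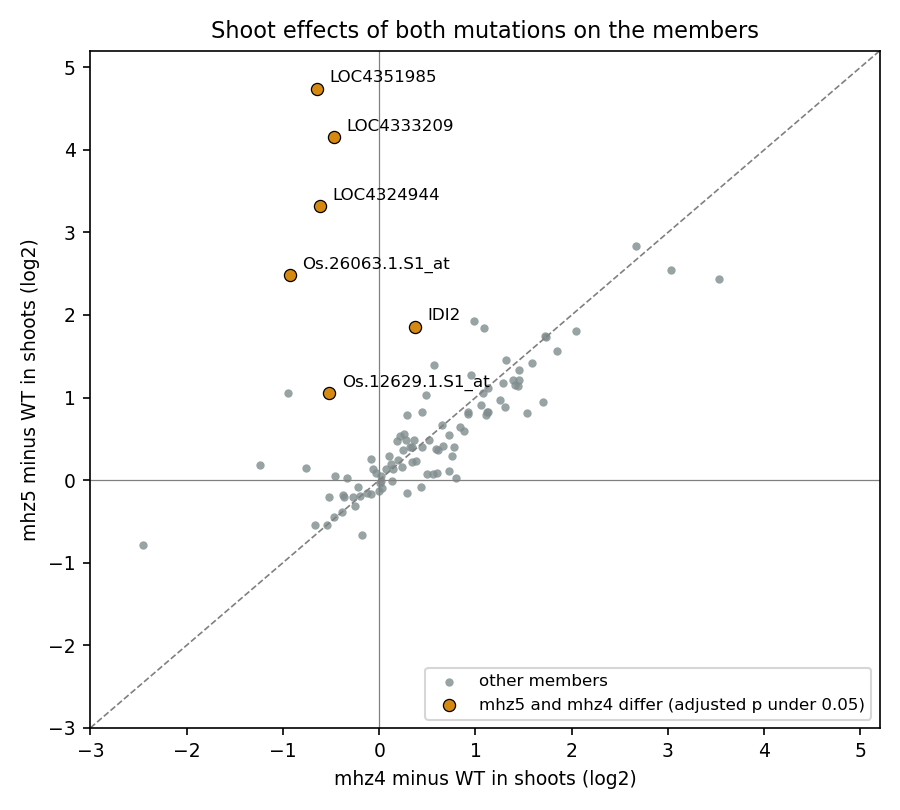
Shoot differences from WT (log2 scale) of the 103 probe sets in mhz4 (horizontal axis) and mhz5 (vertical axis), with the 6 probe sets whose mhz5 and mhz4 values differed in the limma fit filled in orange; the dashed line marks equal effects. LOC4351985, LOC4333209 and LOC4324944 lie at 4.74, 4.15 and 3.32 for mhz5 but at -0.65, -0.47 and -0.62 for mhz4, while most other points lie near the line.

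The response of these genes to ethylene in roots can be read outside the rule only in mhz1, where 87 of the 103 were higher in ethylene than in air (84.5%), against 51.8% of all probe sets in the fit. The root ethylene term, estimated over the 4 genotypes, was positive at an adjusted p under 0.05 for 26 of the 103 probe sets, where 2.13% of all in the fit were, and negative for 3, where 2.78% were. Its median was 0.45 for the 103 and -0.01 for all. The rule compared arrays of the same gas and not ethylene with air, but 6 of the 8 arrays in this term are those it used, so the counts and adjusted p of this term describe these arrays and are not independent support. The count leaned on them: 11 were called higher without both WT root arrays, where 1.02% of all were. The count also fell without either single WT root array and without either mhz1 root array. Calls over all probe sets fell in each of these fits too.

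By genotype, the median of ethylene minus air was 0.20 in mhz4, 0.14 in mhz5, 0.60 in mhz1 and 0.59 in WT roots, each from 1 pair of arrays. A difference of at least 1 was reached by 8 of the 103 in mhz4, 12 in mhz5, 25 in mhz1 and 27 in WT roots, with backgrounds of 1.06%, 0.723%, 0.942% and 1.34%. The mhz4, mhz5 and WT root arrays are those the rule used, so only the mhz1 values lie outside it. For any probe set, a smaller response in a mutant than in WT is the same fact as a larger difference from WT in air. The difference in response between genotypes was not tested.

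**Figure D4:**
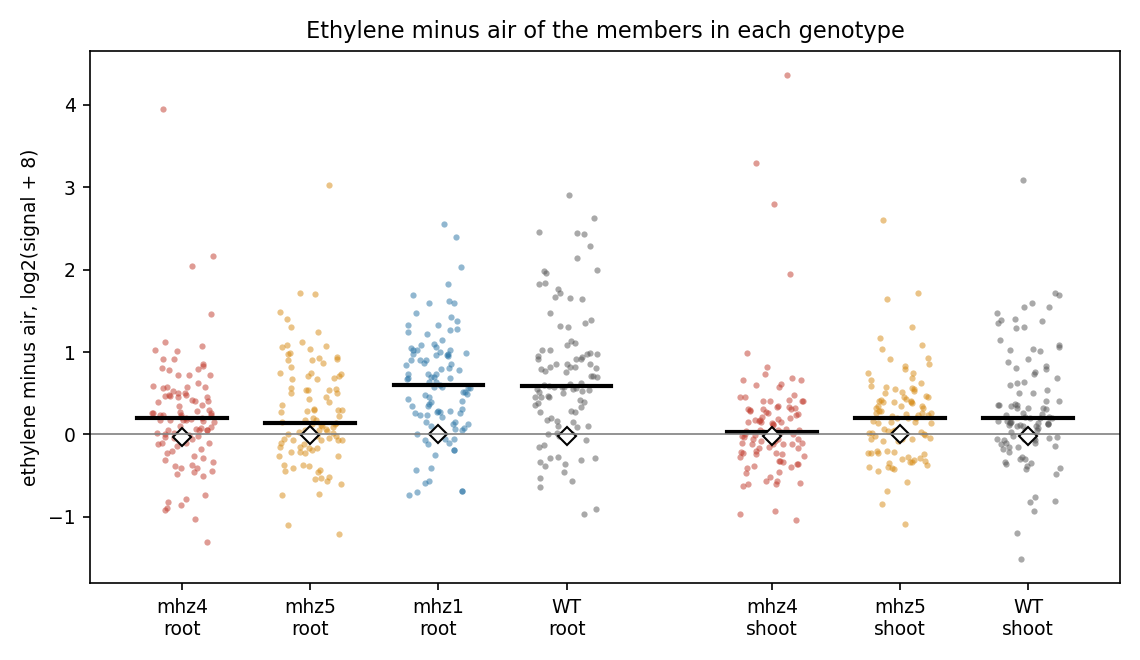
Ethylene minus air in log2(signal + 8) for the 103 probe sets (points) in each genotype and tissue, 1 pair of arrays per column, with black bars at the median of the 103 and white diamonds at the median of all 23237 probe sets in the fit. Root medians are 0.20 in mhz4, 0.14 in mhz5, 0.60 in mhz1 and 0.59 in WT, and shoot medians are 0.03, 0.20 and 0.20 in mhz4, mhz5 and WT.

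The root ethylene calls given below for single probe sets come from this same term, so they are not independent of the rule either. NSHB2 had the largest rise with ethylene in roots, 2.48 ± 0.52 (SE, limma adjusted p = 0.0313), and was higher in ethylene in 4 of 4 genotypes. That call was lost in 9 of 17 alternatives. In mhz1, the only genotype outside the rule, the rise of NSHB2 was 0.96. LOC4325834 read 1257 in ethylene and 275 in air in mhz4 roots, 1535 and 1081 in mhz5, 935 and 298 in mhz1, and 681 and 84.5 in WT, a rise of 1.80 ± 0.34 (SE; limma adjusted p = 0.0216). LOC4325479 read 1339 and 483 in mhz4, 1191 and 544 in mhz5, 658 and 239 in mhz1, and 463 and 68.5 in WT, a rise of 1.66 ± 0.22 (SE; limma adjusted p = 0.00502). In both genes every genotype was higher in ethylene, and the WT air array was the lowest of the 8. The call for LOC4325479 held under all alternatives tried, and that for LOC4325834 was lost, among others, without any one of the WT, mhz4 or mhz1 arrays, at an adjusted p of up to 0.0862.

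LOC4333209 (1.36), LOC4351985 (1.28) and LOC4324944 (1.10), the genes that were high in mhz5 shoots, also rose with ethylene in roots. Their limma adjusted p were 0.0016, 0.00809 and 0.00383. These calls held under all alternatives, each of which kept arrays that the rule used. In mhz1 roots, outside the rule, the rises were 1.03, 0.86 and 0.90 in the same order. OsAffx.20014.1.S1_at (1.53), LOC4341368 (1.21), Os.18744.1.S1_at (1.17) and Os.26063.1.S1_at (1.14) rose as well, but none of these 4 kept its call without the WT arrays. IDI2 rose by 0.94 ± 0.19 on its member probe set and by 0.77 on its second one (limma adjusted p of 0.0295 and 0.0261), and the first call was lost in 8 of 17 alternatives.

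The 3 probe sets that fell with ethylene were LOC4352132, OsAffx.15178.1.S1_s_at and LOC4343352. LOC4352132 read 213 in ethylene and 410 in air in mhz4 roots, 225 and 375 in mhz5, 191 and 261 in mhz1, and 98.1 and 191 in WT, a change of -0.75 ± 0.09 (SE; limma adjusted p = 0.0038). LOC4343352 read 1081 and 1511 in mhz4, 1047 and 1524 in mhz5, 1042 and 1577 in mhz1, and 426 and 669 in WT, a change of -0.56 ± 0.05 (SE; limma adjusted p = 0.000826). All 4 genotypes were lower in ethylene in both genes. Both calls held under all alternatives tried, each of which kept arrays that the rule used. In mhz1 roots, outside the rule, the changes were -0.43 for LOC4352132 and -0.59 for LOC4343352.

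In shoots the ethylene term passed for 4 of the 103 upward, where 0.740% of all did, and for 3 downward, where 1.48% did. The 4 were LOC4325834 (2.07), Os.26063.1.S1_at (1.30), LOC4341247 (1.11) and Os.12629.1.S1_at (0.45), and the 3 were LOC4352132 (-0.82), OsAffx.15178.1.S1_s_at (-0.67) and LOC4343352 (-0.39), the same 3 that fell in roots. Without either mhz4 shoot array none of the 103 passed in either direction, and without either mhz5 shoot array 2 passed upward and 1 downward. A test of the root response minus the shoot response, also added later, called 0 of the 103 in limma in either direction (backgrounds 0.280% and 0.284%). At an unadjusted p under 0.05 in limma, 25 were higher and 4 lower, where 1252 and 1061 of all 23237 probe sets in the fit were.

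Over all probe sets in the fit 2.13% were higher and 2.78% lower with ethylene in roots. Of the lists above, iron acquisition had 11 of 25 genes higher and 0 lower, low-oxygen genes 4 of 7 higher and 0 lower, and nitrogen and phosphate transporters 2 of 19 higher and 0 lower. Beta-glucosidases had 2 of 21 higher and 5 lower, and CIPK kinases 2 of 21 in each direction. Heat shock genes had 3 of 34 higher and 2 lower, expansins and xyloglucan endotransglucosylases 1 of 23 in each direction, jasmonate and lipoxygenase genes 0 of 30 higher and 1 lower, and none of the 9 actin-depolymerising factors passed. Without both WT root arrays, where the shares over all were 1.02% and 1.77%, iron acquisition had 4 higher, low-oxygen genes 2 higher, nitrogen and phosphate transporters 0 higher and beta-glucosidases 1 higher and 3 lower.

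The genes also differed in the organ where they were brighter, a pattern that a choice for low WT root signal affects. LOC4344199 was brighter in shoots, where its brighter probe set read 3296 in ethylene and 2999 in air in mhz4 shoots, 2659 and 2581 in mhz5 shoots, and 1355 and 1021 in WT shoots, against 126 and 139 in WT roots. LOC4341368 was brighter in roots, with 318 and 219 in mhz4 roots, 346 and 192 in mhz5 roots and 113 and 19.4 in WT roots, and no shoot array above 14.6.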

How the data were processed

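Each value is the deposited intensity of 1 probe set on 1 array, for which the submitters' processing notes name MAS5 without a version; no further step is given in the sources used here. The table holds 57381 probe sets, of which 123 AFFX controls were left out. Signals were used as log2(signal + 8), without further normalization. For tests, limma 3.58.1 in R 4.3.3 was fitted to 23237 probe sets with a signal of 50 or more on at least 2 arrays, with 7 genotype-by-tissue and 2 ethylene terms, an intensity trend and 5 residual degrees of freedom; p-values were adjusted by Benjamini-Hochberg over all of them at 0.05. Each group has 1 array, so the arrays of the 2 gases stand in as replicates of a genotype, and genotypes as replicates of ethylene; p-values measure the spread between these arrays, and their number limits the precision. Members and lists were chosen with earlier results of these data known. Genes were named from the platform annotation and the gene table (assembly ASM3414082v1). Described were named genes, the brightest, the largest mhz1 values and the largest calls per direction; beta-glucosidase, CIPK and actin-depolymerising lists were added after the data had been seen. Alternatives changed the pseudocount, scaling, filter, trend and arrays used.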

Additional observations from a re-analysis of the deposited data

Results flagged for a closer look

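These 6 probe sets were set aside because the shoot effect of the mutation differed between mhz5 and mhz4 by a test of the difference itself (limma, adjusted p under 0.05, log2 scale).
The difference of mhz5 minus mhz4 was 5.39 for LOC4351985, where mhz5 was 4.74 above WT and mhz4 stood at -0.65 against WT, 4.63 for LOC4333209, 3.95 for LOC4324944, 3.40 for Os.26063.1.S1_at, 1.58 for Os.12629.1.S1_at and 1.49 for IDI2. On the member probe set of IDI2 both mutants were above WT, by 1.86 in mhz5 and 0.37 in mhz4. The mhz4 difference did not pass (limma adjusted p = 0.351). In the test of mhz4 and mhz5 shoots against WT, this probe set was 1.11 higher (limma adjusted p = 0.0113). The second probe set of IDI2 was 0.24 higher in that test and did not pass (limma adjusted p = 0.361). The gene's 2 probe sets thus differ in shoots as well, and its flag rests on the member probe set.
No group has the 4 arrays that a test for a stray sample needs.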

How the results depend on the processing

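No called difference of a named gene changed sign in the alternatives run for it, which covered named genes only; of all shoot calls 62.1% were higher for both mutants, 58.0% for mhz4 and 67.7% for mhz5, but 45.7%, 44.9% and 45.9% after quantile normalization. No paired analysis was possible because the replicate number is 1 for every group, so the groups share fewer than 2 numbers; gas is already a term of the fit. The rule found 188 probe sets with a difference of 0.6, 63 with 1 and 47 against the higher WT root array, in place of 103. The median of mhz1 minus WT was 0.60 with a pseudocount of 32. With only shoot arrays in the fit, calls over all probe sets were 4057 for both mutants, 3473 for mhz4, 1975 for mhz5, 95 for mhz5 minus mhz4 and 201 for ethylene; members lower were 0, 3, 0 and, for ethylene, 1 (2 higher). Without both WT root arrays, the root ethylene calls were 647 in all and 11 members higher. Members lower in mhz4 shoots were 3 without the filter, 3 without the trend and 2 with a pseudocount of 32; those lower in both mutants were 1 without the trend; those lower in mhz5 were 3 with one trimmed mean and 2 with quantile normalization. Leaving out 1 array at a time gave, over all probe sets, then members higher and lower, 1375 to 6278, 11 to 40 and 0 to 4 for both mutants in shoots (6796, 43 and 2 with all arrays); 1415 to 6170, 10 to 35 and 0 to 7 for mhz4 (6039, 37, 5); 849 to 4542, 12 to 35 and 0 to 3 for mhz5 (4513, 35, 1); 76 to 539, 5 to 8 and 0 to 1 for mhz5 minus mhz4 (332, 6, 0); 507 to 1041, 11 to 25 and 2 to 4 for root ethylene (1141, 26, 3); and 152 to 779, 0 to 3 and 0 to 4 for shoot ethylene (517, 4, 3). Of these counts, the mhz5 minus mhz4 members higher moved by less than 1.5 times. Where 1 array of a pair was left out, the other is assumed to vary like the remaining groups. Causes were not tested. Signals near the bottom of the scale, such as BGLU3 and LOC4340325 in WT roots, have little measured difference left below them, and differences there depend on the pseudocount.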
